A study of Mus musculus with 6 samples.

Results

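The cell-surface receptors for Wnt proteins, the Frizzled genes Fzd1 to Fzd8 and the co-receptors Lrp5 and Lrp6, were followed in mouse astrocytes whose GSK-3 was inhibited and then released. The 10 genes were chosen by name, as receptors and co-receptors of the pathway, and not by their values. Through the accession of each array probe, 9 of the 10 genes were matched, by 13 of 41174 non-control probes. No probe was matched to Lrp6, which is not analysed here. All 13 probes were well above background on all 6 arrays, so that the filter on dim probes removed none of them.

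Wnt proteins bind the cysteine-rich outer domain of a Frizzled receptor and, at the same time, Lrp5 or Lrp6. The receptor pair recruits Dishevelled and Axin to the membrane, which stops GSK-3 from marking beta-catenin for destruction. An inhibitor of GSK-3 raises beta-catenin below the receptors, and the Frizzled genes sort by sequence into the groups Fzd1, Fzd2 and Fzd7, then Fzd3 and Fzd6, then Fzd5 and Fzd8, with Fzd4 close to Fzd9 and Fzd10. In the brain, Fzd3 and Fzd6 are best known for planar cell polarity and axon guidance, and Fzd4 for the control of vessels through Norrin.

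The cells were astrocytes in primary culture from cortex and striatum of wild-type C57BL/6J mice taken 1 day after birth. Controls grew in serum-containing medium (10%), and the protocol names DMSO at the final concentration used with the inhibitor. Ro cultures received 1 µM Ro3303544, a GSK-3 inhibitor, for 48 h from day 13 in vitro, and washout cultures received the same treatment and then 48 h in medium without it. All cultures had been treated with 5 µM cytosine arabinoside for 2 days, meant to deplete microglia, and fewer than 1% of cells carried the microglial protein Iba1, per the labels. Each group had 2 arrays. Whether the replicates were independent cultures is not stated, so that p-values measure the spread between these arrays, which may be technical.

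All 10 astrocyte markers were well above background on all 6 arrays. Replicates correlated across features at r = 0.995 (control), 0.996 (Ro) and 0.992 (washout). With so few arrays precision is limited. Control and Ro arrays shared a slide, the washout arrays lay on another, and washout cultures were older at harvest (day 17 against day 15), so that washout cannot be told apart from slide and age. In bulk RNA, fewer cells of a type and less RNA per cell cannot be told apart.

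Levels below are log2 intensities of the brightest probe of a gene, relative to the 75th percentile of the array. A difference of 1 is therefore 2-fold, and the level of one gene is not set against that of another, since probes differ in brightness. Changes are differences of group means ± their standard error (SE) in a limma fit of all 6 arrays, n = 2 in each group, and p-values were adjusted by Benjamini-Hochberg over 20089 features. The threshold was an adjusted p of 0.05.

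Upstream sequences were available from RefSeq for 4 of the 10 genes, and 3 are shown because the genes moved in different directions under Ro. They are the 250 bases before the gene's start, 5′ to 3′ on the gene's strand, in build GRCm38. Capitals mark CTTTGA or CTTTGT on either strand, core letters of the sites bound by TCF and LEF, the factors through which beta-catenin acts. Fzd1 and Fzd7 belong to one sequence group. Fzd1 rose, and Fzd7 fell on its brighter probe but not on its dimmer one. Fzd5 stands for a gene that fell and came back.
Fzd1, chr5:4758217-4758466, minus strand: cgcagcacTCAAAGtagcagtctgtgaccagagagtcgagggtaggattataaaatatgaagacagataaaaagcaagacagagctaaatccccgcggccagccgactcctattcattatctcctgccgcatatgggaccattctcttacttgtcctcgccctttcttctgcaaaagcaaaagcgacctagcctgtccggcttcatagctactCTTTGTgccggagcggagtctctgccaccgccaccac
Fzd7, chr1:59481897-59482146, plus strand: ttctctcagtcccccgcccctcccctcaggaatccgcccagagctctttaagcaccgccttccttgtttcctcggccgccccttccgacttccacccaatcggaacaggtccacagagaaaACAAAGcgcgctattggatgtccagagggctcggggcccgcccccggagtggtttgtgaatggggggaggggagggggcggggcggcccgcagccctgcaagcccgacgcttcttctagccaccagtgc
Fzd5, chr1:64737751-64738000, minus strand: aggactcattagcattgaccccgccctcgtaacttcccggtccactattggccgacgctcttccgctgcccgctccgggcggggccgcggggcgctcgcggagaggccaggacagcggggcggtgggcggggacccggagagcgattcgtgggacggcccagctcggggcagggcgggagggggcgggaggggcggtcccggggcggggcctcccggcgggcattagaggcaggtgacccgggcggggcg
The Fzd1 window held 2 matches, CTTTGT beginning 37 bases before the start and CTTTGA on the opposite strand beginning 242 bases before it. The Fzd7 window held 1 match, CTTTGT on the opposite strand, 129 bases before the start. The Fzd5 and Fzd4 windows held none. Of 32851 RefSeq promoter windows of the same length 27.6% held at least 1 match, and no match says only that these letters are not in the window. The windows differed in base composition, with 51.2% G and C for Fzd1, 65.2% for Fzd7, 72.8% for Fzd4 and 76.4% for Fzd5, against a median of 52.4% over all windows. CpG pairs numbered 12, 17, 25 and 32 in the same order, and the median window had 6.

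Receptor transcripts were first compared between Ro and control cultures, to see what 48 h of GSK-3 inhibition did to them. Fzd1 and Fzd6 rose, Fzd4, Fzd5, Fzd7, Fzd8 and Lrp5 fell, and Fzd2 and Fzd3 did not pass the test. The 7 of 9 genes past the threshold stand against 42.2% of all features called in this comparison, so that much of the transcriptome moved as well; 2 of 9 were higher (19.4% of all features) and 5 of 9 lower (22.8%). The median change of the 9 genes was -0.32, against 0.0036 over all features. The arrays of the groups did not overlap for 7 of 9 genes and for 77.3% of all features.

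**Figure D1:**
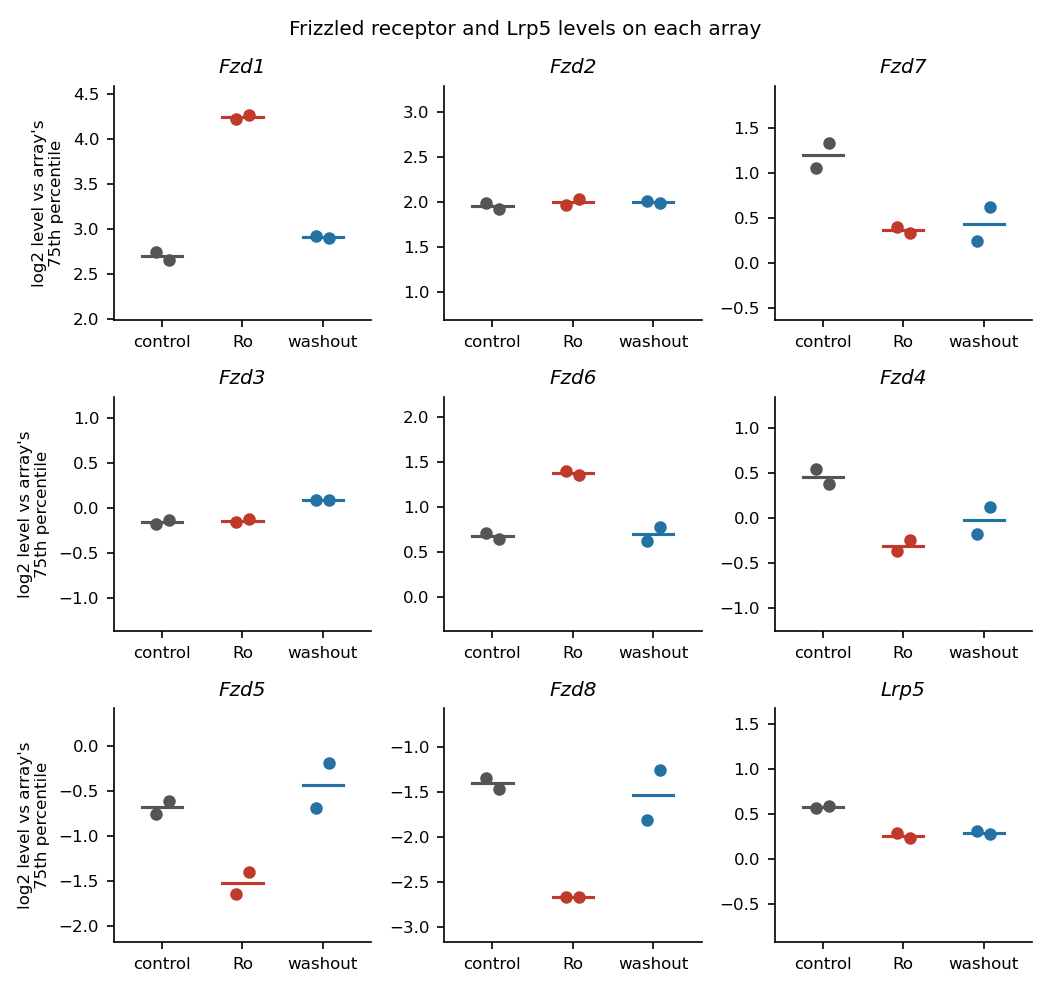
Level of each receptor gene on each array (y axis, log2 intensity relative to the array's 75th percentile; every panel spans the same number of log2 units) in control, Ro and washout cultures; points are arrays and bars are group means of 2. Fzd1 and Fzd6 stand high in Ro, and Fzd5 and Fzd8 stand low in Ro. Lrp5 and the brighter Fzd7 probe, the one shown, stand low in both Ro and washout.

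Fzd1, a receptor that couples to beta-catenin, had the largest change. Its level was 2.75 and 2.66 on the control arrays, 4.22 and 4.26 on the Ro arrays, and 2.93 and 2.90 on the washout arrays. Both Ro arrays lay far above the others, and both washout arrays lay slightly above both control arrays. Fzd1 was 2.90-fold higher in Ro than in control (1.54 ± 0.07, adjusted p = 0.00023). It stayed past the threshold under every alternative run, with changes from 1.49 to 1.58.

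Of the near relatives of Fzd1, Fzd2 did not pass the test and Fzd7 fell on its brighter probe. Fzd2 stood at 1.99 and 1.92 in control, 1.97 and 2.03 in Ro, and 2.01 and 1.99 in washout. These levels overlapped, the change in Ro was 0.05 ± 0.07 (adjusted p = 0.630), and the 95% interval ran from -0.13 to 0.23. The second Fzd2 probe gave 0.04 ± 0.09 for the same comparison. On that probe the washout arrays (-1.04 and -0.92) lay above both Ro arrays (-1.38 and -1.24), a rise of 0.33 ± 0.09 past the threshold when every probe was tested (adjusted p = 0.036), while the brighter probe gave -0.01. The dim spots around the second probe were raised by 0.73 on control array 1 and by 0.33 on control array 2, and their part in its level was not tested.

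Fzd7 is a receptor known from stem cells and early development. Its brighter probe read 1.05 and 1.33 in control, 0.39 and 0.33 in Ro, and 0.24 and 0.62 in washout. Both control arrays lay above the other 4, and the Ro and washout arrays overlapped. The fall in Ro was 1.77-fold (-0.83 ± 0.16, adjusted p = 0.014). The dimmer Fzd7 probe did not show it, with -2.60 and -2.36 in control, -2.37 and -2.39 in Ro, and -2.28 and -2.47 in washout, a change of 0.10 ± 0.12 in Ro (adjusted p = 0.529). The mean of both probes fell by 0.36 (adjusted p = 0.049), so that whether a fall was measured, and its size, depends on the probe. The call on the brighter probe was lost without control 2 (adjusted p = 0.070), without Ro 1 (0.064) and without Ro 2 (0.079).

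**Figure D2:**
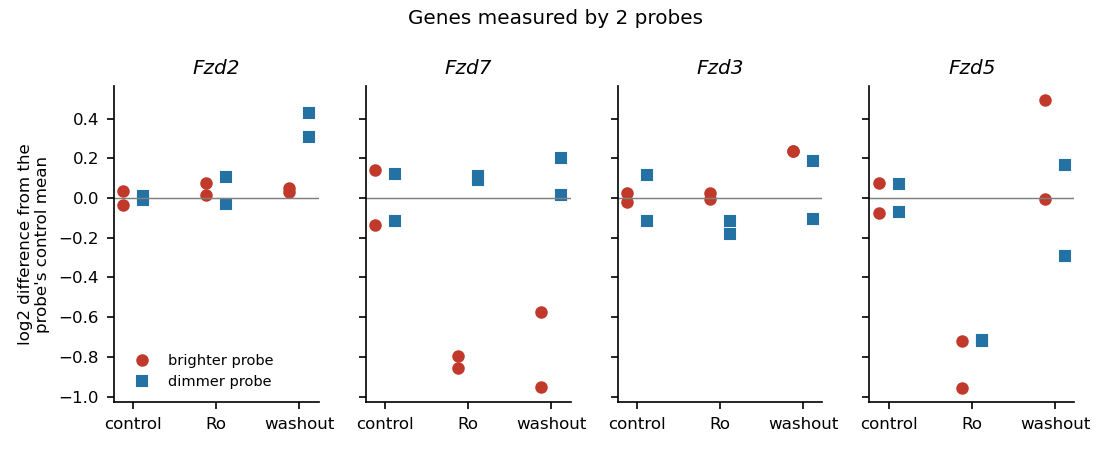
The 4 receptor genes with 2 probes; the y axis is the log2 difference of each array from the probe's own control mean, circles are the brighter probe, squares the dimmer, and each group has 2 arrays. The Fzd5 probes fell together in Ro, while the brighter Fzd7 probe fell by 0.83 and the dimmer one changed by 0.10.

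Fzd6, which acts in planar polarity and can oppose beta-catenin signalling, was the other gene that rose. It stood at 0.71 and 0.65 in control, 1.40 and 1.35 in Ro, and 0.63 and 0.77 in washout. The Ro arrays lay above all the others, while washout and control overlapped. The rise in Ro was 1.62-fold (0.70 ± 0.08, adjusted p = 0.0028), and it kept its call under every alternative run, from 0.67 to 0.74. Its relative Fzd3 did not pass the test in Ro: the levels were -0.17 and -0.13 in control and -0.15 and -0.13 in Ro, a change of 0.01 ± 0.07 (adjusted p = 0.926, 95% interval -0.16 to 0.18). The second Fzd3 probe gave -0.15 ± 0.14, and the mean of its probes put the sign below zero. The washout arrays stood at 0.09 and 0.09, above the other 4.

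Fzd5 and Fzd8, a closely related pair that couples to beta-catenin, fell together. Fzd8 was at -1.35 and -1.47 in control, -2.67 and -2.67 in Ro, and -1.82 and -1.27 in washout. Both Ro arrays lay below all the others, and washout spanned the control levels. The fall was 2.39-fold (-1.26 ± 0.19, adjusted p = 0.0060), past the threshold under every alternative run. Fzd5 was at -0.75 and -0.61 in control, -1.64 and -1.40 in Ro, and -0.69 and -0.19 in washout, with both Ro arrays below all the others. It fell by 0.84 ± 0.19 in Ro (1.79-fold, adjusted p = 0.022), and its dimmer probe fell by 0.72 ± 0.17 (adjusted p = 0.024). The Fzd5 call was lost without any one of control 1, control 2, Ro 1 and Ro 2 (adjusted p of 0.072, 0.105, 0.108 and 0.064) and with no filter on dim probes (0.063).

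Most measured markers of ependymal cells, microglia and oligodendrocyte precursors, which the cultures can hold, moved in the same direction as Fzd5 and Fzd8. Over all features 22.8% were lower in Ro and 19.4% higher. All 5 measured ependymal markers fell in Ro, and their mean level was 2.63 and 2.53 in control, 0.84 and 1.03 in Ro, and 2.80 and 2.72 in washout. Of 9 measured microglial markers 6 fell and 1 rose, with mean levels of -1.57 and -1.68 in control, -2.50 and -2.39 in Ro, and -1.81 and -1.78 in washout. The microglial marker that rose was Tmem119 (0.93 ± 0.09, adjusted p = 0.0016), named after its value was seen. P2ry12, another microglial marker, was not well above background on any array. All 4 measured oligodendrocyte precursor markers fell, with mean levels of 0.82 and 0.90 in control, -0.66 and -0.71 in Ro, and 0.20 and 0.11 in washout. Of the 10 astrocyte markers 2 rose and 6 fell in Ro, with mean levels of 3.98 and 3.93 in control, 3.46 and 3.55 in Ro, and 3.88 and 3.83 in washout. Of 4 measured oligodendrocyte markers 1 rose and 1 fell in Ro, and of 4 measured neuronal markers 1 rose and 3 fell. Endothelial markers are given with Fzd4 below. The part of these cells in the receptor changes was not tested.

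Fzd4, the receptor for Norrin as well as for Wnts, was at 0.54 and 0.38 in control, -0.36 and -0.24 in Ro, and -0.17 and 0.13 in washout. All 4 arrays of Ro and washout lay below both control arrays, and both washout arrays lay above both Ro arrays. The fall in Ro was 1.70-fold (-0.76 ± 0.13, adjusted p = 0.0091). Dim spots around this probe were raised by 0.53 on control array 1. Without that array the fall was -0.68 (adjusted p = 0.053), and without Ro 1 it was -0.70 (adjusted p = 0.059). Fzd4 is known from endothelial cells: of 8 endothelial markers Pecam1, Tie1 and Tek were well above background on no array, Cldn5 on 1 and Cdh5 on 2, and 3 passed the filter. The mean level of these 3 was -2.19 and -2.07 in control and -1.13 and -1.10 in Ro, and 1 rose, 1 fell and 1 did not pass the test. Kdr rose by 3.11 ± 0.10 and Flt1 changed by -0.38 (adjusted p = 0.039, a call lost without any one of the control and Ro arrays, with adjusted p from 0.061 to 0.192). Kdr and Flt1 were named after their values were seen, and the part of endothelial cells in the Fzd4 change was not tested.

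Lrp5, the co-receptor known for its role in bone mass and retinal vessels, had the smallest of the called changes. It stood at 0.57 and 0.59 in control, 0.29 and 0.23 in Ro, and 0.31 and 0.28 in washout. Both control arrays lay above the other 4, and Ro and washout overlapped. The fall in Ro was 1.25-fold (-0.32 ± 0.07, adjusted p = 0.017), a size close to the median absolute change of all features, 0.31. The call was lost without any one of control 1, control 2, Ro 1 and Ro 2 (adjusted p of 0.064, 0.072, 0.083 and 0.118) and with no filter on dim probes (0.060).

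**Figure D3:**
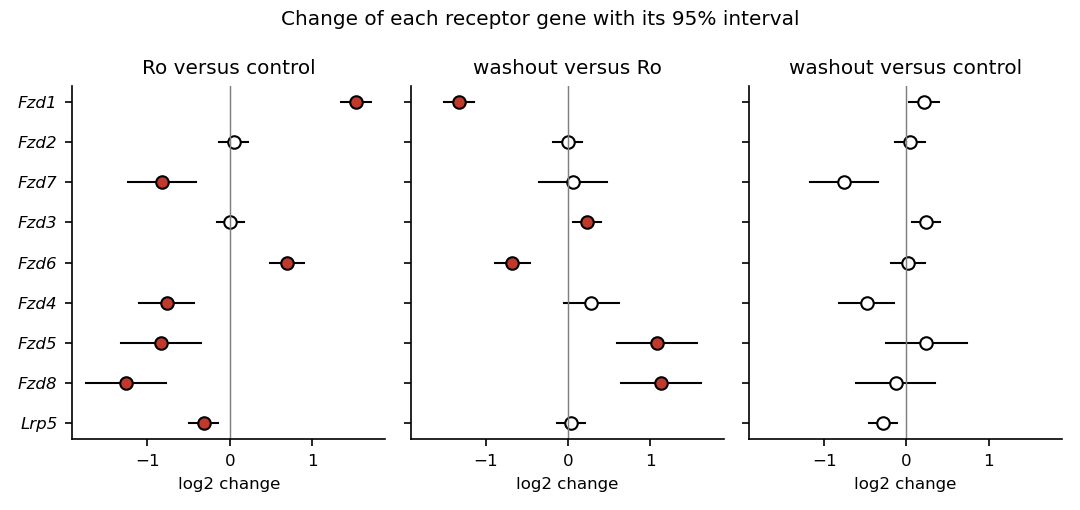
Log2 change of the 9 receptor genes in the 3 comparisons (x axis), with lines for the 95% interval from limma; filled points had an adjusted p under 0.05. In Ro versus control 7 genes were called, in washout versus Ro 5, and in washout versus control none.

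Washout was then set against Ro, to see what the receptor transcripts did once the inhibitor was gone. Fzd1 and Fzd6 fell, Fzd5, Fzd8 and Fzd3 rose, and Fzd2, Fzd4, Fzd7 and Lrp5 did not pass the test. The 5 of 9 genes called stand against 41.6% of all features; 3 were higher (21.3% of all features) and 2 lower (20.3%), and the arrays did not overlap for 6 of 9 (74.6%). This comparison shares the Ro arrays with the one before it, so that a noisy Ro value would move both.

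Fzd1 fell 2.50-fold after removal (-1.32 ± 0.07, adjusted p = 0.00031) and Fzd6 1.60-fold (-0.68 ± 0.08, adjusted p = 0.0030), both under every alternative run. Fzd8 rose 2.18-fold (1.13 ± 0.19, adjusted p = 0.0082), a call lost without Ro 2 (adjusted p = 0.052). Fzd5 rose 2.11-fold (1.08 ± 0.19, adjusted p = 0.0098), a call lost without Ro 1 (adjusted p = 0.057), and its dimmer probe rose by 0.66 ± 0.17 (adjusted p = 0.030).

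The rise of Fzd3 after removal was small, 1.17-fold (0.23 ± 0.07, adjusted p = 0.044). It lost its call under 15 of 20 alternatives, the replicate block and each left-out array among them, and was 0.13 with median centring and 0.12 with the authors' deposited values. Its second probe gave 0.19 ± 0.14. Fzd4 changed by 0.28 ± 0.13 (adjusted p = 0.147, 95% interval -0.05 to 0.62). Fzd7 changed by 0.06 ± 0.16 (95% interval -0.35 to 0.48) and Lrp5 by 0.04 ± 0.07 (95% interval -0.13 to 0.21); both were slightly below zero with median centring.

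Finally, washout was set against control, to see which receptor levels still differed 48 h after removal. None of the 9 genes passed the threshold in limma, where 10.1% of all features did (4.11% higher and 6.03% lower). The arrays did not overlap for 5 of 9 genes, against 56.4% of all features, and 5 of 9 had an unadjusted p under 0.05, against 28.6% of all features. Those 5 were Fzd1 (0.21 ± 0.07, adjusted p = 0.130), Fzd3 (0.24 ± 0.07, 0.092), Fzd4 (-0.48 ± 0.13, 0.086), Fzd7 (-0.76 ± 0.16, 0.050) and Lrp5 (-0.28 ± 0.07, 0.065). Fzd7 missed the threshold by a narrow margin. It passed under 8 of 20 alternatives, with adjusted p between 0.012 and 0.187 over all of them, and without washout 2 the change was -0.95 (adjusted p = 0.036). Its dimmer probe gave 0.11 ± 0.12.

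Markers of meningeal fibroblasts also stood below control in washout, where 6 of 7 measured genes were called lower, against 6.03% of all features. Their mean level was 0.38 and 0.63 in control, -0.05 and -0.08 in Ro, and -0.63 and -0.57 in washout. The 5 measured markers of pericytes and smooth muscle cells had mean levels of 0.09 and 0.12 in control, -0.39 and -0.63 in Ro, and -0.32 and -0.14 in washout. Of these 5 genes 3 fell and 1 rose in Ro, against 22.8% of all features lower and 19.4% higher. In washout 2 were lower than control, against 6.03% of all features, and none was higher. The neuronal markers Snap25 and Slc17a7 and the oligodendrocyte marker Mog were not well above background on any array. The part of meningeal cells and pericytes in the receptor levels was not tested.

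Set side by side, the genes called in Ro differed in how far washout stood from control. The washout mean kept 13.9% of the Ro change of Fzd1, 2.80% of that of Fzd6 and 10.5% of that of Fzd8. On its brighter probe Fzd5 lay beyond control on the other side, at -28.8%. The dimmer Fzd5 probe gave -0.06 ± 0.17 for washout versus control, the opposite sign. The washout mean kept 63.3% of the change of Fzd4, 88.3% of that of Lrp5 and, on the brighter probe, 92.4% of that of Fzd7. The dimmer Fzd7 probe showed no fall to keep, with 0.10 ± 0.12 in Ro and 0.11 ± 0.12 in washout, each against control. With each of the 6 arrays left out in turn, the share ran from 11.4% to 16.2% for Fzd1, from -7.61% to 13.2% for Fzd6, from -11.4% to 32.4% for Fzd8 and from -58.6% to 0.912% for Fzd5. It ran from 43.7% to 83.0% for Fzd4, from 69.4% to 115% for Fzd7 and from 81.4% to 96.5% for Lrp5, so that 1 array moves most of these shares widely. These shares are ratios with a common control mean and carry no test, and whether Fzd7 and Lrp5 differ from the other genes in return was not tested. In order of level, Fzd1 ran control, washout, Ro, with control and washout not called apart. Lrp5 and the brighter Fzd7 probe ran Ro, washout, control, with Ro and washout overlapping.

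Other genes with profiles like those of Fzd1 and Fzd8, the 2 genes with the largest called changes in Ro, were sought by the root mean square distance over the 6 arrays, after each gene was centred on its control mean. Among 13050 other named genes the nearest to Fzd1 were Cdc14a (distance 0.06), Sat1 (0.06), Slco1c1 (0.07), Nxnl2 (0.08) and Cd1d1 (0.08). Their changes in Ro ran from 1.46 to 1.61, and after washout they stood 0.16 to 0.31 above control. Nearest to Fzd8 were Kcnh5 (0.07), Chit1 (0.08), C1rb (0.09), Mme (0.10) and 4430402I18Rik (0.12), which fell by 1.13 to 1.27 in Ro. Likeness over 6 arrays in 3 groups describes shape and size alone.

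The other Wnt receptors and co-receptors of a list fixed by name ranged further in Ro than the 9 genes. Of 9 measured, 5 rose and 2 fell in Ro, or 77.8% against 42.2% of all features, with a median of 0.42. Fzd10, a Frizzled of the Fzd4 branch, was at -0.72 and -0.77 in control, 3.16 and 3.16 in Ro, and -0.04 and 0.00 in washout. It rose 15-fold (3.90 ± 0.07, adjusted p = 3.8e-05) and fell by 3.18 ± 0.07 after removal. Fzd10 was also the one Frizzled called above control in washout (0.73 ± 0.07, adjusted p = 0.0096). That washout call was lost with no filter on dim probes (adjusted p = 0.056). It was also lost without control 2, at a change of 0.71, and without Ro 2, at 0.73. Fzd9, its relative, rose by 1.08 ± 0.30 (adjusted p = 0.037), a call lost without any one of the control and Ro arrays (adjusted p from 0.109 to 0.156). Reck, which presents Wnt7 proteins to the receptor, rose 3.71-fold (1.89 ± 0.07), while Adgra2, its partner receptor, changed by -0.94 ± 0.13. Tspan12, the partner of Fzd4 in Norrin signalling, did not pass the test (0.24, adjusted p = 0.175). Ndp, the gene of Norrin and part of the list of secreted proteins below, rose by 1.17 ± 0.09 (adjusted p = 0.00082).

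**Figure D4:**
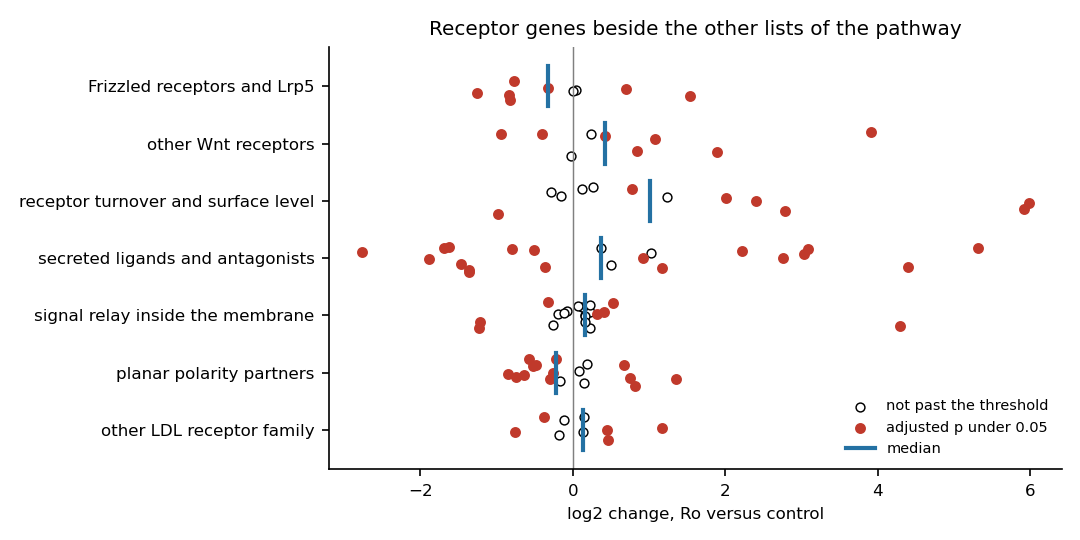
Log2 change in Ro versus control (x axis) of the 9 receptor genes and of genes of 6 other lists, 1 point per gene, filled where the adjusted p was under 0.05; vertical bars are list medians. The receptor genes lie between -1.26 and 1.54, and the turnover list reaches 5.98.

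Among genes that set receptor levels at the surface, several large rises were seen. Of 12 measured genes of receptor turnover and maturation 6 rose and 1 fell in Ro, or 58.3% against 42.2% of all features, with a median of 1.01. Rnf43, the ubiquitin ligase that removes Frizzled receptors from the membrane, was 63.0-fold higher in Ro (adjusted p = 5.1e-05), and its relative Znrf3 rose by 0.78 ± 0.09. Rnf43 was dim in control, at -4.80 and -4.82, though above background on both arrays. Apcdd1, a membrane inhibitor that binds Wnts and Lrp5, rose by 5.92, with 1 of 2 control arrays above background, and was at least 37.0-fold lower in washout than in Ro. Lgr5, an R-spondin receptor, was at least 1.53-fold higher in Ro (adjusted p = 0.043), a call lost without any one of the control and Ro arrays (adjusted p from 0.138 to 0.153), with no filter on dim probes (0.106), with normexp (0.111, at a change of 0.32) and with the replicate block (0.0503). Lgr6, another R-spondin receptor, rose 5.27-fold, a call lost without control 1 (adjusted p = 0.055), control 2 (0.054) or Ro 2 (0.056). Lgr4 (0.27, adjusted p = 0.071), Mesd, the chaperone that Lrp5 and Lrp6 need to fold (0.12, adjusted p = 0.206), and Kremen1, which draws Lrp5 and Lrp6 from the surface together with Dkk proteins (-0.29, adjusted p = 0.069), did not pass.

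The secreted proteins that bind these receptors went both ways: of 21 measured ligands and antagonists 8 rose and 10 fell in Ro, or 85.7% against 42.2% of all features, with a median of 0.37. Sfrp2, a secreted Frizzled-like protein, was 20.9-fold higher (4.39 ± 0.08), Wif1, which binds Wnts, 39.8-fold, and Rspo1 8.46-fold. Wif1 was dim in control, at -4.38 and -4.56, above background on both control arrays but on neither washout array. Wnt6 was at least 2.19-fold higher in Ro, since it was not well above background in control. A bound of this kind sets the bright group against the lowest signal called above background on the dim arrays. Wnt7a fell by 2.76 ± 0.08, from 0.24 and 0.23 in control to -2.56 and -2.48 in Ro.

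Of 19 measured genes of signal relay inside the membrane, 4 rose and 3 fell in Ro, or 36.8% against 42.2% of all features. Axin2 rose 19.5-fold, while Dab2 fell by 1.23 ± 0.08 and Amer2, a membrane anchor of the destruction complex, by 1.21 ± 0.13. The Dishevelled genes, whose products bind the inner face of Frizzled, did not pass: Dvl1 changed by -0.07, Dvl2 by 0.23 and Dvl3 by -0.12.

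Among 17 measured genes of planar polarity and non-canonical signalling 4 rose and 9 fell in Ro, or 76.5% against 42.2% of all features, with a median of -0.22. Prickle1, a core polarity protein, rose by 1.35 ± 0.07 and Ankrd6 by 0.82 ± 0.09. The cadherin Celsr2 fell by 0.75 ± 0.07 and the formin Daam2 by 0.85 ± 0.07. Of 9 measured receptors of the wider low-density lipoprotein family, to which Lrp5 belongs, 3 rose and 2 fell in Ro, or 55.6% against 42.2% of all features. Vldlr rose by 1.17 ± 0.10 and Lrp2, also called megalin, fell by 0.76 ± 0.07.

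Genes of these lists were also called after removal of the inhibitor, where 41.6% of all features were called, 21.3% higher and 20.3% lower. Of the 9 other Wnt receptors 5 fell and none rose in washout versus Ro (55.6% called), with a median of -0.62. Reck fell by 1.72 ± 0.07 and Lrp4, an agrin receptor that also binds Wnt antagonists, changed by -0.82, a call lost without Ro 1 (adjusted p = 0.065) or Ro 2 (0.079). Of the 12 turnover genes 5 fell and 1 rose (50.0% called), with a median of -0.63, and Rnf43 fell by 5.21 ± 0.13. Of the 21 secreted proteins 9 fell and 8 rose (81.0% called), and Wif1 was at least 48.3-fold lower. Of the 17 planar polarity genes 6 rose and 4 fell (58.8% called), with Prickle1 at -1.73 ± 0.07 and Celsr2 at 0.75 ± 0.07.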

How the data were processed

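The deposited array files hold Cy3 intensity values on a linear scale, and per the file headers the authors extracted them with Agilent Feature Extraction 10.5.1.1 (10.1 by the submitters' processing notes). The processed intensity was corrected for background within an array and not scaled between arrays. RNA integrity numbers were 6.5 or more, per the labels. A further deposited table gives, for every sample, a linear ratio per probe; its direction matched that of the intensities (probe-centred r of at least 0.9973 per array), column medians ran from 0.872 to 0.987, its centring rule is not given in the sources used here, and it served as an alternative.

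Probes with flagged spots on any array (106) were left out. From log2 of the processed intensity the 75th percentile of the same array was subtracted, which lay between 629 and 804. A probe was kept if both arrays of any group had it well above background (26469 probes), and the brightest per gene was used (20089 features). Probes were named through accessions in RefSeq GRCm38 tables, where 61.0% of them had a symbol, since the files hold no gene names. All groups entered one limma fit (limma 3.58.1, R 4.3.3), with 3 residual and 2.07 prior degrees of freedom; simulated data with known changes served to check the scripts. With 2 arrays in each of 2 groups, the smallest two-sided p of an exact permutation test is 0.333. Figures were drawn with matplotlib 3.10.9.

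The receptor genes, lists, tests and alternatives were chosen with earlier results of these data known. All receptor genes are named. Of each other list up to 4 called genes with the largest change and no overlap are named, or all if 5 or fewer were called. Znrf3, Lgr4, Mesd, Kremen1, Tspan12, Wnt7a, Ndp, Smo and the Dishevelled genes were named for their role, outside that rule, Ndp after its value was seen. Alternatives covered normexp, other scalings, the authors' table, looser and stricter filters, limma-trend, robust fits, the treatment of several probes, a replicate block, and single arrays left out.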

Additional observations from a re-analysis of the deposited data

How the results depend on the processing

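Calls depend on a spread estimated over all 6 arrays, and where 1 array is left out the lone one is assumed to vary like the rest. The 9 receptor genes in 3 comparisons gave 537 values under alternatives, of which 474 kept direction and side of the threshold. Leaving out 1 array gave 3 to 7 genes called in Ro versus control, 3 to 4 in washout versus Ro and 0 to 1 in washout versus control. In washout versus control, where none was called, 2 were with normexp on median signals, 3 with limma-trend, and 1 each with median centring, the authors' deposited table, probes above background on all 6 arrays, Ro numbers crossed in the block and probes outside bright regions. The last 2 were chosen after seeing the data. Fzd4 lay in a bright region and has no value there. With the replicate block 7, 4 and 0 genes were called; replicate numbers share no stated source, and deviations of same-numbered arrays correlated at -0.119, 0.0784 and -0.111, so that they were not taken as pairs.

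Among the receptor genes, changes of sign were confined to values that did not pass the test. Below zero were, with median centring, Fzd7 (-0.0313) and Lrp5 (-0.0569) in washout versus Ro and Fzd2 (-0.0094) and Fzd6 (-0.031) in washout versus control; with the authors' deposited table the same 4 at -0.0397, -0.0653, -0.0177 and -0.0393; and Fzd3 in Ro versus control with normexp (-0.0002) and the mean of probes (-0.0695). Fzd2 in washout versus Ro was 0.16 with the mean of probes. Leaving out 1 array gave ranges across zero for Fzd3 in Ro versus control (-0.0137 to 0.0313), for Fzd2 (-0.0365 to 0.0265) and Fzd7 (-0.13 to 0.25) in washout versus Ro, and for Fzd5 (-0.0076 to 0.4913), Fzd6 (-0.0531 to 0.0922) and Fzd8 (-0.41 to 0.14) in washout versus control; Dvl1 in Ro versus control ran from -0.2045 to 0.0669. The cause was not tested.

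Over all features 2037 were called in washout versus control, against 141 with no filter, 960 with the 4 arrays compared, 758 with the replicate block and 370 to 2214 with 1 array left out. Ro versus control had 8484 calls (4632 to 8576 with 1 array left out) and washout versus Ro 8356 (4875 to 8132). Median centring moved the median of all features to -0.12 in washout versus Ro, and 40.0% of calls were then higher, against 51.3%; the authors' deposited table gave 38.9%. In washout versus control the share was 40.5%, and 30.1% and 29.1% under those settings; it was 59.2% without washout 2, 26.0% without control 1 and 28.7% without control 2.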

Other observations

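Smo and Ptch1 of the Hedgehog pathway were measured beside the Wnt receptors; Smo is a receptor of the Frizzled class. Smo did not pass the test in Ro versus control (0.11, adjusted p = 0.325). Its inhibitor Ptch1, itself a Hedgehog target, fell 2.19-fold in Ro (-1.13 ± 0.11, adjusted p = 0.0017) and rose by 0.86 ± 0.11 after removal.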
